A study of Mus musculus with 6 samples.

Results

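The interferon regulatory factors are transcription factors that share a DNA-binding domain and control interferon genes and the genes that interferon induces. The rows of Irf1, Irf2, Irf3, Irf4, Irf5, Irf7, Irf8 and Irf9 were taken from the deposited count table by Entrez identifier, which gave 8 genes of 27179 identifiers, and all 8 had enough reads to be tested among 13207 genes. The 6 libraries came from mouse leukaemia cells positive for green fluorescent protein and sorted as viable from spleen (strain C57BL/6). There were 3 libraries after 3 days of panobinostat, an inhibitor of histone deacetylases, and 3 after vehicle. Every library carried the same labelled genotype, A/E9a;NRASG12D;Ifnar1-/-: the A/E9a form of the AML1-ETO fusion, the NRAS change G12D, and loss of Ifnar1, a chain of the type I interferon receptor. No library with an intact receptor was among them, so the comparison is of drug with vehicle in cells labelled as lacking Ifnar1. The labels used here do not give the number of clones or animals, nor the age of the hosts, so p-values measure the spread between libraries, which may be technical.

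The family works in layers. IRF3, IRF5 and IRF7 are switched on by kinases downstream of sensors of nucleic acids and microbial products, and then induce interferon genes. IRF9 works with STAT2 in the complex ISGF3, which binds the interferon-stimulated response element (ISRE) after type I interferon. IRF1 is induced through a gamma-activated site (GAS), and IRF2 occupies many of the same elements as IRF1 and can oppose it. IRF4 and IRF8 work with the ETS factors PU.1 and SPIB in B cells, dendritic cells and myeloid cells.

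Library totals ran from 31989622 to 35962605 counts, and levels are given as CPM, read counts scaled to the library's effective size, where 3 counts correspond to 0.0834 to 0.0948 CPM. Kit, a receptor of blood progenitors taken as a marker of the leukaemia, was at 172.5 to 241 CPM in panobinostat and 121 to 266.5 CPM in vehicle libraries. Vehicle library 1 stood apart from its group. Across tested genes, whose values are not independent, its log2 CPM correlated at 0.984 with panobinostat library 3 but at 0.942 at most with a library of its own group (Pearson's r). Panobinostat library 1 stood apart on the second principal component. Results that rest on either library are given with and without it. Library numbers are those of the columns and are not tied to the replicate numbers of the labels.

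Since all cells are labelled as lacking a receptor chain, the promoter stretches that hold elements of interferon signalling are shown first. The RefSeq promoter table (GRCm38.p6, 250 bases before to 50 after a start) matched 8 of 8 members with 11 windows. Both strands were searched for the ISRE letters GAAANNGAAA and the GAS letters TTCNNNGAA. An ISRE match was in 3.44% and a GAS match in 8.30% of all 32851 windows of that length. Of the members, Irf1, Irf2 and Irf8 held a match; it describes the letters and not a bound site. All are on the plus strand and are read 5′ to 3′, with the matches in capitals, first Irf1 with a GAS match (chr11:53769899-53769957), then Irf2 with an ISRE and a GAS match (chr8:46739495-46739554), then Irf8 with a pair of GAS matches (chr8:120736162-120736238).
Irf1: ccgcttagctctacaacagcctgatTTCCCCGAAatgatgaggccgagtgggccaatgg
Irf2: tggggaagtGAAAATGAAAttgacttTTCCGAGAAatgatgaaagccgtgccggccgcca
Irf8: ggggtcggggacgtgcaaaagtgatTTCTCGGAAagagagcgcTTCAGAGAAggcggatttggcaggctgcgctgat

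Per length, most mRNA of the 8 members came from Irf3, Irf9 and Irf2. Divided by the length of the gene's merged exons in GENCODE M21, Irf3 averaged 27.9 CPM per kb over the 6 libraries, Irf9 10.4, Irf2 9.18, Irf5 1.93, Irf1 1.04, Irf7 0.755, Irf8 0.240 and Irf4 0.118 CPM per kb. Irf3 was the highest in 6 of 6 libraries. The order of Irf9 and Irf2 depended on the transcripts used. With merged exons their ranges over libraries overlapped, at 8.70 to 11.6 and 8.18 to 9.98 CPM per kb. When only GENCODE's basic transcripts were used they changed places and the ranges parted. Irf9 was then at 15.1 to 20.1 and Irf2 at 24.2 to 29.6 CPM per kb. With merged exons, neighbours from Irf5 down to Irf7 overlapped, at 0.622 to 3.68 CPM per kb for Irf5, 0.613 to 1.32 for Irf1 and 0.545 to 1.004 for Irf7. Irf8, at 0.0473 to 0.415 CPM per kb, stayed below that range and overlapped Irf4, at 0.0322 to 0.298. With basic transcripts Irf8 did not stay below. It reached 0.852 CPM per kb in vehicle library 2, above Irf5 there at 0.683 and above Irf1 in vehicle library 3 at 0.730. With merged exons, Irf2, Irf3 and Irf9 together made up 92.3, 91.6 and 91.9% of the 8 members' summed level per kb in panobinostat libraries 1, 2 and 3. In vehicle libraries 1, 2 and 3 they made up 89.1, 93.3 and 94.8%.

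No member passed the test of panobinostat against vehicle. EdgeR's quasi-likelihood test, adjusted over all 13207 genes by Benjamini and Hochberg's method, called 0 of 8 members higher and 0 lower, where it called 0% of all genes in either direction. At an unadjusted p under 0.05 it took 0 members and 301 genes. DESeq2 and limma-voom also called 0 members, and each gave an unadjusted p under 0.05 to Irf8 alone of the members. Over all genes, DESeq2 gave such a p to 483 of 18921 and limma-voom to 412 of 13207. Of the members' log2 fold changes, 4 were above and 4 below 0, with a median of -0.051, beside a median of 0.0009 over all genes tested. Over the 6 libraries the log2 CPM of 4 of 8 members ranged over at least 1, namely Irf1, Irf4, Irf5 and Irf8, as did that of 30.5% of the genes tested.

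**Figure D1:**
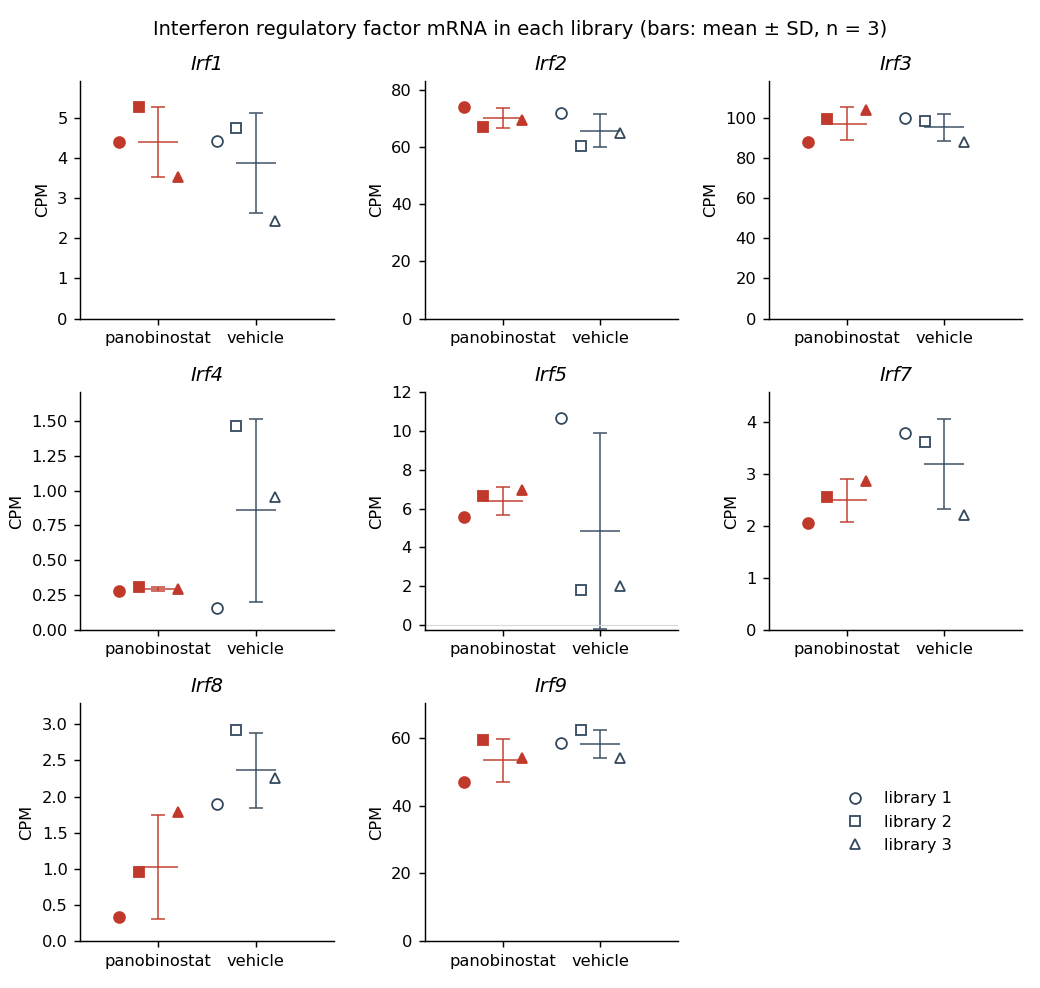
CPM of each member in the panobinostat libraries (filled) and vehicle libraries (open), with circles, squares and triangles for libraries 1, 2 and 3 and bars for the mean ± SD (n = 3 each); each axis has its own scale. Irf2, Irf3 and Irf9 varied least between libraries, Irf5 was highest in vehicle library 1 at 10.7 CPM and lowest in vehicle libraries 2 and 3, and Irf8 alone had groups that did not overlap.

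Among the members that act on interferon genes, Irf3, the constitutive factor activated by TBK1 (Entrez gene 54131, chromosome 7, 44997648 to 45002848), stood at 87.7, 99.2 and 104 CPM in panobinostat libraries 1, 2 and 3 and at 100.04, 98.2 and 87.6 CPM in vehicle libraries 1, 2 and 3. The groups overlapped, and its log2 fold change was 0.02 with a 95% interval of -0.237 to 0.284. Irf7, the interferon-inducible factor that amplifies interferon-alpha production (Entrez gene 54123, chromosome 7, 141263183 to 141266499), stood at 2.06, 2.56 and 2.88 CPM in panobinostat libraries 1, 2 and 3 and 3.79, 3.61 and 2.20 CPM in vehicle libraries 1, 2 and 3. Its groups overlapped too, with vehicle libraries 1 and 2 the highest. The log2 fold change of Irf7 was -0.36 (SE 0.310, interval -1.11 to 0.388). Per kb, Irf7 was 0.0214 to 0.0253 of Irf3 in panobinostat libraries and 0.0229 to 0.0345 of it in vehicle libraries.

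Irf5 was uneven between the vehicle libraries. IRF5 is activated downstream of Toll-like receptors and induces inflammatory cytokines (Entrez gene 27056, chromosome 6, 29526130 to 29541869). It stood at 5.59, 6.66 and 6.94 CPM in panobinostat libraries 1, 2 and 3 and at 10.7, 1.81 and 2.03 CPM in vehicle libraries 1, 2 and 3. The panobinostat libraries lay close together, between vehicle library 1 above and vehicle libraries 2 and 3 below. Over all libraries the log2 fold change of Irf5 was 0.40 (SE 0.708, interval -1.31 to 2.12, edgeR adjusted p 0.998). Without vehicle library 1, edgeR called Irf5 higher with panobinostat at a log2 fold change of 1.72 (SE 0.236, adjusted p 0.0335), where 2% of genes were called higher and 0.419% lower. Without both libraries numbered 1 it was called again, at 1.81 (SE 0.229, adjusted p 0.00648), where 7.36% of genes were called higher. Without any other single library Irf5 was not called. The tested genes with a mean of at least 1 CPM whose profile over the 6 libraries lay nearest to that of Irf5 were Gask1b, Neil2 and Gpr174, with root-mean-square differences of 0.0792, 0.129 and 0.134 in centred log2 CPM. Gask1b stood at 109, 140 and 159 CPM in panobinostat libraries 1, 2 and 3 and at 224, 39.7 and 47.3 CPM in vehicle libraries 1, 2 and 3.

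The megakaryocyte list was also uneven between the vehicle libraries. The summed level of its 6 markers was 14.6, 79.6 and 111 CPM in panobinostat libraries 1, 2 and 3 and 173, 7.37 and 6.41 CPM in vehicle libraries 1, 2 and 3. The part of these markers in the Irf5 values was not tested. Markers of monocytes and macrophages, which use IRF5, had a sum over 8 genes of 11.3 to 27.0 CPM in panobinostat libraries and 17.1 to 24.4 CPM in vehicle libraries.

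**Figure D2:**
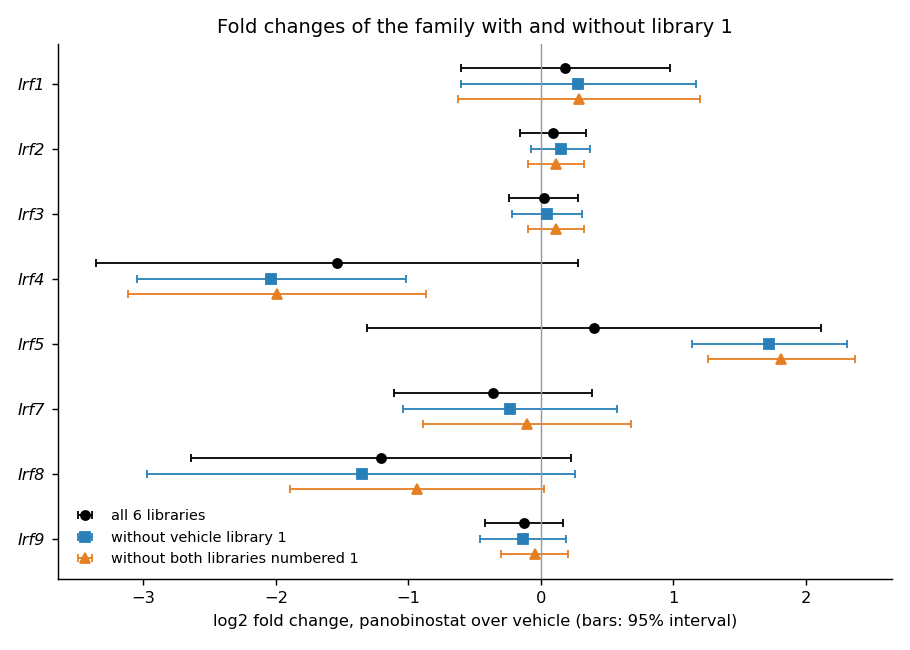
Log2 fold change of each member, panobinostat over vehicle, by edgeR's quasi-likelihood test with 95% intervals, over all 6 libraries (circles), without vehicle library 1 (squares) and without both libraries numbered 1 (triangles). The interval of Irf5 runs from -1.31 to 2.12 with all libraries and from 1.14 to 2.31 without vehicle library 1, while those of Irf2, Irf3 and Irf9 stay narrow and include 0 in each setting.

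Of the pair that share response elements, Irf1, an activator induced by interferon-gamma (Entrez gene 16362, chromosome 11, 53770014 to 53778374), stood at 4.39, 5.26 and 3.53 CPM in panobinostat libraries 1, 2 and 3 and 4.42, 4.73 and 2.44 CPM in vehicle libraries 1, 2 and 3. The groups overlapped, with vehicle library 3 lowest, and the log2 fold change was 0.185 (interval -0.604 to 0.974). Irf2, its counterpart (Entrez gene 16363, chromosome 8, 46739745 to 46847458), was among the steadiest members, at 73.8, 67.0 and 69.4 CPM in panobinostat libraries 1, 2 and 3 and 72.0, 60.5 and 64.8 CPM in vehicle libraries 1, 2 and 3. Its log2 fold change was 0.09, with an interval of -0.157 to 0.342. Per kb of merged exons, Irf1 was 0.111, 0.146 and 0.0945 of Irf2 in panobinostat libraries 1, 2 and 3 and 0.114, 0.146 and 0.070 of it in vehicle libraries 1, 2 and 3, lowest in vehicle library 3. The size of these ratios depends on the length used. With basic transcripts Irf2 was at 24.2 to 29.6 CPM per kb and Irf1 at 0.730 to 1.575, which makes the ratios lower. The profiles nearest to Irf1 were those of Slc29a2, Rassf7 and Avpi1, at root-mean-square differences of 0.116, 0.140 and 0.141.

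Irf9, the DNA-binding part of ISGF3 (Entrez gene 16391, chromosome 14, 55603985 to 55610030), stood at 46.9, 59.6 and 54.1 CPM in panobinostat libraries 1, 2 and 3 and at 58.6, 62.4 and 54.1 CPM in vehicle libraries 1, 2 and 3. Panobinostat library 1 was the lowest and the other 5 libraries lay within a narrow band. The log2 fold change of Irf9 was -0.12, with an interval of -0.418 to 0.169. Stat2, which joins it there, stood at 55.2, 65.2 and 55.2 CPM in panobinostat libraries 1, 2 and 3 and 73.2, 57.7 and 49.6 CPM in vehicle libraries 1, 2 and 3.

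Irf4 and Irf8, the lymphoid and myeloid members, were on average the lowest per kb and had the most negative estimates. Irf8, a factor of B cells, dendritic cells and monocytes (Entrez gene 15900, chromosome 8, 120736358 to 120756694), was at 0.334, 0.956 and 1.78 CPM in panobinostat libraries 1, 2 and 3 and at 1.90, 2.93 and 2.26 CPM in vehicle libraries 1, 2 and 3. Every panobinostat library was below every vehicle library, which held for 1 of 8 members and for 3.63% of all genes tested. The gap was small, since the counts behind the nearest pair were 60 in panobinostat library 3 and 60 in vehicle library 1, whose 95% Poisson intervals of 1.36 to 2.29 and 1.45 to 2.44 CPM overlapped. The log2 fold change of Irf8 was -1.21 (SE 0.594, interval -2.64 to 0.226, edgeR adjusted p 0.998), and without both libraries numbered 1 it was -0.93 (SE 0.396, adjusted p 0.187).

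Irf4, a factor of activated B cells and plasma cells (Entrez gene 16364, chromosome 13, 30749233 to 30766981), had 10, 11 and 10 counts in panobinostat libraries 1, 2 and 3 and 5, 51 and 33 counts in vehicle libraries 1, 2 and 3. That is 0.278, 0.309 and 0.296 CPM in panobinostat libraries and 0.158, 1.46 and 0.957 CPM in vehicle libraries. Vehicle library 1 lay below the panobinostat libraries and vehicle libraries 2 and 3 above them. Counting error alone gave vehicle library 1 a 95% Poisson interval of 0.0513 to 0.368 CPM, which holds the panobinostat values. The log2 fold change of Irf4 was -1.54 (SE 0.754, interval -3.36 to 0.282). Without vehicle library 1 it was -2.04 (SE 0.410, edgeR adjusted p 0.0709). Without both libraries numbered 1, edgeR called Irf4 lower at -1.99 (SE 0.467, adjusted p 0.0441), where 4.65% of genes were called lower.

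The summed B cell markers were lowest and highest in the same libraries as Irf8, though not each marker was. The summed level of 8 B cell markers was 4.86, 10.8 and 25.6 CPM in panobinostat libraries 1, 2 and 3 and 24.5, 45.6 and 29.9 CPM in vehicle libraries 1, 2 and 3. All 8 had negative estimates with a median log2 fold change of -1.27, and 0 passed the test. The median was -0.826 without panobinostat library 1 and -2.25 without panobinostat library 3. The antigen receptor chain Cd79a stood at 0.556, 2.64 and 5.54 CPM in panobinostat libraries 1, 2 and 3 and 4.90, 10.1 and 6.70 CPM in vehicle libraries 1, 2 and 3. The plasma cell list summed to 0.889, 2.02 and 4.003 CPM in panobinostat libraries 1, 2 and 3 and 2.97, 24.8 and 3.94 CPM in vehicle libraries 1, 2 and 3, with Tnfrsf17 at 0 in all libraries. Jchain alone gave 23.55 of the 24.8 CPM in vehicle library 2. Sdc1 averaged 0.41 CPM in panobinostat and 0.17 CPM in vehicle libraries, and Mzb1 0.48 and 0.81 CPM. In these bulk samples fewer cells of a type and less RNA per cell cannot be told apart, and the part of B cells in the Irf4 and Irf8 values was not tested. The sort for green fluorescent protein would remove host B cells that lack it. Panobinostat library 1, where Irf8 was lowest, also held the most mast cell and basophil markers, with a sum over 6 genes of 961 CPM against 328 to 384 CPM in the other 5 libraries. It held the fewest erythroid markers, with a sum over 7 genes of 1586 CPM against 3445 to 11490 CPM in the other 5. Estimates were negative for 7 of 7 tested T and NK cell markers, with a median of -0.888, for 3 of 3 tested granulocyte markers, with a median of -1.24, and for 7 of 8 monocyte and macrophage markers, with a median of -0.451. Without panobinostat library 1 these medians were -0.479, -0.883 and -0.242, and without both libraries numbered 1 they were -0.237, -1.29 and -0.088. In both settings 4 granulocyte markers were tested. Of the granulocyte markers too low for the test over all libraries, Mpo and Elane averaged higher with panobinostat, and Ly6g and Camp lower. None of the tested markers of these lists passed the test over all libraries, and their part in the Irf8 values was not tested. The plasmacytoid dendritic cell list of 7 genes summed to 15.8 to 23.96 CPM in panobinostat libraries and 21.9 to 25.8 CPM in vehicle libraries, mostly from Tcf4 at 12.3 to 20.7 CPM in panobinostat libraries and 16.3 to 20.7 CPM in vehicle libraries. Siglech, the lectin that defines mouse plasmacytoid dendritic cells, was at most 0.0593 CPM in panobinostat libraries and 0.174 CPM in vehicle libraries. The conventional dendritic cell list summed to 0.590 to 1.097 CPM in panobinostat libraries and 1.52 to 1.67 CPM in vehicle libraries. The profiles nearest to Irf8 were those of Fcrla, Ifi203 and Bank1, at root-mean-square differences of 0.139, 0.153 and 0.155. Those nearest to Irf4 were Slc22a13b, Ift140 and Snx22, at 0.287, 0.312 and 0.321.

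**Figure D3:**
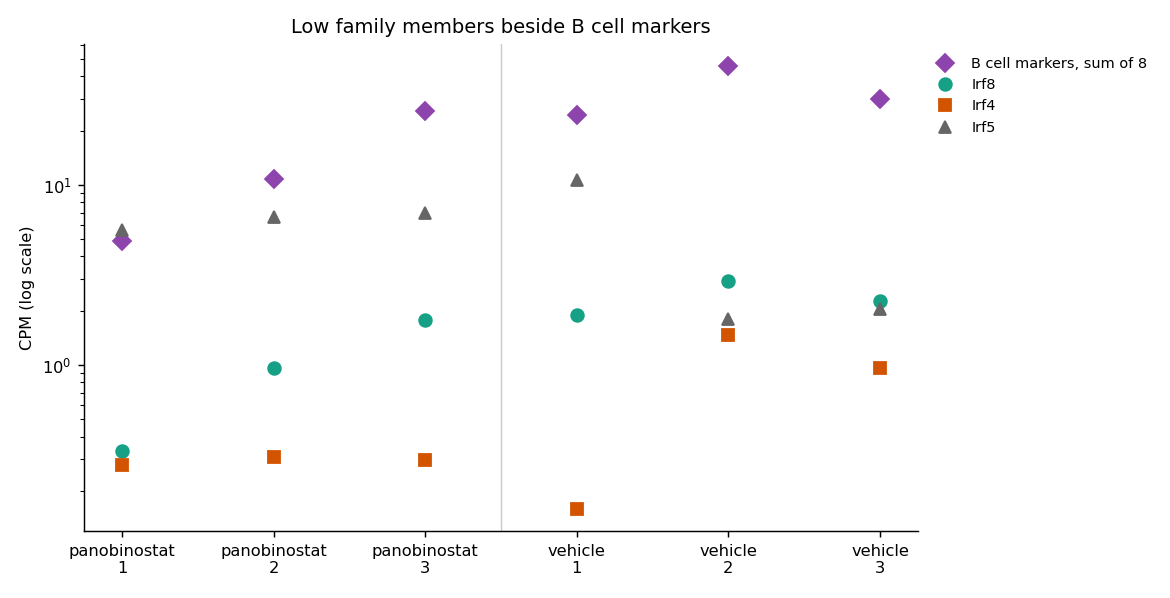
CPM on a log axis in each library of Irf8 (circles), Irf4 (squares), Irf5 (triangles) and the summed 8 B cell markers (diamonds), with panobinostat libraries on the left and vehicle libraries on the right. Irf8 and the B cell sum are lowest in panobinostat library 1, at 0.334 and 4.86 CPM, and highest in vehicle library 2, at 2.93 and 45.6 CPM, while Irf4 is lowest in vehicle library 1 and Irf5 is highest there.

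Upstream of the family, the kinases, the adaptors and the sensors other than Toll-like receptors were present, and none was called over all libraries. Tlr3 and Tlr4 were too low to be tested, at no more than 0.197 and 0.344 CPM in any library, and Tlr7 reached 0.602 CPM. Of 17 listed genes 15 were tested, 7 with a positive and 8 with a negative estimate, a median log2 fold change of -0.00392, and 0 past the threshold in either direction. Tbk1, the kinase of IRF3, stood at 82.4, 58.8 and 65.8 CPM in panobinostat libraries 1, 2 and 3 and 73.2, 75.3 and 72.3 CPM in vehicle libraries 1, 2 and 3. The genes of the list with the smallest p were Tlr9, Ifih1 and Traf3, with log2 fold changes of -1.50, 0.28 and 0.43 and unadjusted edgeR p of 0.0424, 0.0657 and 0.0987. Tlr9, an endosomal DNA sensor used by B cells and plasmacytoid dendritic cells, was at most 0.365 CPM in panobinostat libraries and 0.442 to 1.09 CPM in vehicle libraries. Ddx58, which encodes the RNA sensor RIG-I, stood at 14.1, 14.1 and 14.7 CPM in panobinostat libraries 1, 2 and 3 and 26.1, 5.25 and 4.67 CPM in vehicle libraries 1, 2 and 3. Like Irf5, it was called higher without vehicle library 1, at a log2 fold change of 1.52 (edgeR adjusted p 0.0252), where 2% of all genes were. When both libraries numbered 1 were left out, Ddx58 was called higher at 1.53 and the adaptor gene Mavs lower at -0.388 (edgeR adjusted p 0.00415 and 0.0299). In that setting 7.36% of all genes were called higher and 4.65% lower.

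Among partners and regulators, 14 of 15 genes were tested, 7 with a positive and 7 with a negative estimate, a median of 0.0329, and 0 past the threshold. Spi1, which encodes PU.1, stood at 81.7, 69.3 and 67.6 CPM in panobinostat libraries 1, 2 and 3 and 76.5, 54.9 and 44.1 CPM in vehicle libraries 1, 2 and 3. Its relative Spib, a B cell and plasmacytoid dendritic cell factor, separated the groups, at 0.417, 1.32 and 2.31 CPM in panobinostat libraries 1, 2 and 3 and 2.91, 5.42 and 4.99 CPM in vehicle libraries 1, 2 and 3. Separation in that direction held for 1 of the 14 tested genes of this list and for 3.63% of all genes tested. The log2 fold change of Spib was -1.72 (SE 0.622, unadjusted edgeR p 0.0312), and that of Ikzf3, which encodes the lymphoid factor Aiolos, was -1.26 (SE 0.620). Irf2bpl, named for its likeness to IRF2-binding proteins, stood at 70.0, 38.4 and 41.9 CPM in panobinostat libraries 1, 2 and 3 and 68.4, 14.6 and 16.2 CPM in vehicle libraries 1, 2 and 3, and was named after its values were seen. Without both libraries numbered 1 it was called higher at 1.37 (edgeR adjusted p 0.00235), as was Rbck1 at 0.349 (adjusted p 0.0451), while Spib was called lower at -1.53 (adjusted p 0.0337). Of all genes, 7.36% were called higher and 4.65% lower in that setting.

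Genes known as IRF1 targets had mostly positive estimates. All 12 were tested, 9 with a positive and 3 with a negative estimate, a median log2 fold change of 0.458 beside 0.0009 over all genes, and 0 past the threshold. The median rested on single libraries: it was 0.117 without vehicle library 3, 0.209 without panobinostat library 1 and 0.775 without vehicle library 1. Groups did not overlap for 3 of them, all higher, where 3.79% of genes were separated in that direction. Gbp2, a guanylate-binding protein, had 6.70, 6.38 and 6.14 CPM in panobinostat libraries 1, 2 and 3 and 3.38, 2.09 and 1.01 CPM in vehicle libraries 1, 2 and 3. Gbp5, a GTPase of inflammasome signalling, stood at 8.39, 5.26 and 3.80 CPM in panobinostat libraries 1, 2 and 3 and 1.64, 2.47 and 2.49 CPM in vehicle libraries 1, 2 and 3. Il15, a cytokine of natural killer cells, stood at 3.70, 2.31 and 2.70 CPM in panobinostat libraries 1, 2 and 3 and 2.27, 0.717 and 1.39 CPM in vehicle libraries 1, 2 and 3. Their log2 fold changes were 1.57, 1.40 and 0.99, with unadjusted edgeR p of 0.0102, 0.00801 and 0.0756. Without vehicle library 1, 2 members of the list were called higher, Socs1 and Cd274, where 2% of all genes were. There were 4 without both libraries numbered 1, namely Socs1, Cd274, Gbp2 and Tap1, where 7.36% of all genes were called higher. Irf1 itself, as given above, had groups that overlapped.

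Among ISGF3 targets, 12 of 17 passed the filter on low counts, 8 with a positive and 4 with a negative estimate, a median of 0.102, and 0 past the threshold. The median was -0.518 without panobinostat library 3 and -0.119 without vehicle library 2, where 13 targets passed the filter. With 12 past the filter, it was -0.168 without vehicle library 3, 0.435 without vehicle library 1 and 0.654 without both libraries numbered 1. In the last setting 3 targets were called higher, Oas1a, Oasl2 and Bst2 (edgeR adjusted p 0.0486, 0.0491 and 0.0462), where 7.36% of all genes were. Oas1a, a 2'-5'-oligoadenylate synthetase with near-identical copies whose reads may be shared, had a log2 fold change of 1.51 over all libraries (SE 0.412, unadjusted edgeR p 0.00956). Bst2, the antiviral protein tetherin, stood at 33.0, 45.8 and 42.5 CPM in panobinostat libraries 1, 2 and 3 and 39.4, 33.5 and 26.6 CPM in vehicle libraries 1, 2 and 3. Oas2 was at most 0.337 CPM in panobinostat libraries and 0.537 CPM in vehicle libraries. Interferon genes of types I, II and III were near 0: of 8 listed, 5 had 0 counts in all libraries, which allows up to 0.0948 CPM, and the sum of all 8 was at most 0.0281 CPM in panobinostat libraries and 0.126 CPM in vehicle libraries. Of 8 genes linked to IRF4 or IRF8, 5 were tested and 0 were called, with a median of -0.0319. The median ran from -1.27 without panobinostat library 3 to 0.275 without vehicle library 1, each over 6 tested genes. It was 0.736, also over 6 genes, without both libraries numbered 1. There Id2 was called higher at 2.53 (edgeR adjusted p 0.00753), along with 7.36% of all genes. Bcl6, a germinal centre repressor, had a log2 fold change of -1.54 (SE 1.02), Cebpa, a granulocyte factor, -1.46 (SE 1.42) and Zbtb46, a dendritic cell factor, 0.36 (SE 1.03).

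**Figure D4:**
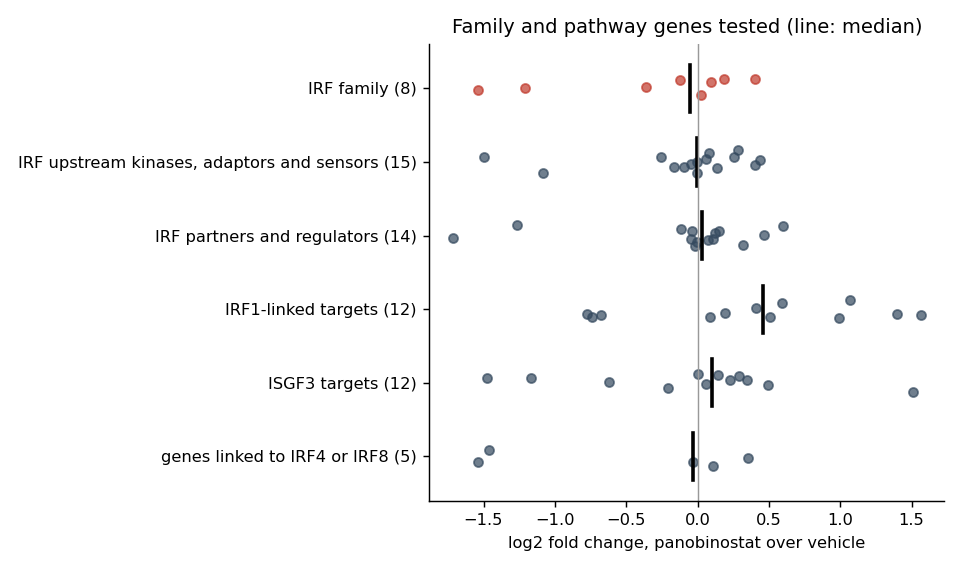
Log2 fold changes, panobinostat over vehicle, of the 8 family members and of the tested genes of 5 pathway lists, with 1 point per gene and a line at each median. Over all 6 libraries the IRF1 target list has a median of 0.458, which was 0.117 without vehicle library 3, and no point passed the test over all genes.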

How the data were processed

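RNA was measured by sequencing in 6 libraries. The deposited table holds raw counts per Entrez gene, whole numbers that the authors left unscaled. The submitters' processing notes name mm10 and, among other tools, HISAT2 2.1.0 and featureCounts of Subread 2.0.0; for the annotation and the strand setting, the entry is not given in the sources used here. The spans of 7 of 8 members overlap another GENCODE M21 gene, among them Irf3 with Bcl2l12 on the opposite strand and Irf8 with Gm20388 on the same strand, so their counts may be affected. Symbols came from RefSeq GRCm38.p6, the assembly of mm10, for 25275 of 27179 identifiers.

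The test was that of edgeR 4.0.16 in R 4.3.3 on deposited counts (filterByExpr with a minimum count of 10, TMM factors, robust quasi-likelihood F-test, two-sided, Benjamini-Hochberg threshold 0.05), a method tried on simulated counts. Standard errors are the log2 fold change divided by the square root of F. Intervals of log2 fold changes are at the 0.95 level on the total degrees of freedom of the test, prior plus residual. Centred log2 CPM used a prior count of 2. Poisson intervals and the limit of 3 counts speak for counting error alone. Reads were not tagged with molecular identifiers and need not be separate molecules. Alternatives were RLE, upper-quartile and library-size scaling, other filters, DESeq2 1.42.0, limma-voom (limma 3.58.1), no robust option, a replicate block, a stricter threshold and left-out libraries.

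Members and lists were chosen with earlier results of these data known. Named were all members, the 3 members of each pathway list with the smallest p, and the 3 genes nearest in profile to each member whose log2 CPM ranged over at least 1. Other genes were named after their values were seen. A further family member and a partner gene are not reported here.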

Additional observations from a re-analysis of the deposited data

How the results depend on the processing

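The count of called genes rested on vehicle library 1. With each library left out in turn, edgeR called 0 to 268 genes higher and 0 to 56 lower with panobinostat, and 0 to 1 members of the family higher, the member being Irf5 without vehicle library 1. Without both libraries numbered 1 it called 974 genes higher and 616 lower, and 1 member higher (Irf5) and 1 lower (Irf4). DESeq2 called 7 genes higher and 1 lower, with 0 members. The estimates of Irf1 and Irf3 changed sign with a library left out: Irf1 ran from -0.0579 to 0.360, and Irf3 from -0.0318 to 0.0916 on the log2 scale. Irf5 ran from 0.0138 to 1.72, Irf4 from -2.04 to -0.918 and Irf8 from -1.87 to -0.787. Irf4 could not be fitted with a mean of at least 1 CPM, since it falls below that filter. With the column number as a replicate block, edgeR called 0 genes higher and 0 lower, and the log2 fold change of Irf8 was -1.46. Deviations from the group mean of libraries with the same number correlated at -0.139, 0.072 and -0.203. With 3 libraries per group and library 1 of each standing apart, these values cannot show whether the numbers pair the libraries. No call changed under the other scalings and filters, in limma-voom, with the robust option off or at a threshold of 0.01. Irf4 and Irf8 rest on 5 to 102 counts per library, so their counting error is relatively large.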
